A study of Mus musculus with 6 samples.

Results

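This report covers 10 genes of the T-bet programme in germinal centre B cells: Tbx21, Eomes, Cxcr3, Zeb2, Itgax, Itgam, Fcrl5, Il12rb1, Il12rb2 and Tlr7. They are T-bet itself, its targets, its relatives and markers of T-bet-positive B cells, taken by symbol from the 23420 genes listed in every library. The set was chosen by its KO against WT differences, since Tbx21 and Cxcr3 had been seen among the largest ones in these same libraries, so the values of the 10 genes are given as a description, with no test. Messenger RNA was sequenced from sorted splenic germinal centre B cells in 3 KO and 3 WT libraries, each group numbered 1 to 3. KO mice were BASP1 fl/fl hCD20TamCre+/- and WT mice BASP1 +/+ hCD20TamCre+/-. Both groups thus carried 1 copy of a tamoxifen-inducible Cre that a human CD20 promoter restricts to B cells. Both were immunized with NP-KLH, received 1 mg of tamoxifen on day 5, day 7 and day 9, and were sampled on day 10. Age and strain are not in the labels, nor is whether each library is a mouse of its own. Any p-value thus rests only on the spread between these libraries, mostly pooled over genes, and that spread may be technical.

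T-bet is a T-box transcription factor. It is induced by interferon gamma, by IL-12 through STAT4 and, in B cells, by endosomal Toll-like receptors and IL-21, and it activates the chemokine receptor gene Cxcr3. In mouse B cells T-bet promotes switching to IgG2a or IgG2c, and it marks a population, often called age-associated or atypical B cells, that also carries the integrin chains CD11c (Itgax) and CD11b (Itgam). ZEB2, a zinc-finger repressor, is required for that population, and the RNA sensor TLR7 drives it. BASP1, the protein whose gene was floxed, is found at the plasma membrane and, in the nucleus, serves as a co-repressor of transcription.

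The 250 bases before the start of the genes were read from RefSeq (GRCm38.p6), where 8 of the 10 genes matched, with 11 windows because Zeb2 has 4. The windows of Tbx21 and Cxcr3 are shown because these genes had the largest differences, and that of Il12rb2 because it holds matches to motifs of both T-bet and STAT factors. The Cxcr3 line stops where the GENCODE transcript starts, 122 bases upstream of the RefSeq start. Capitals mark matches to TCACAC, the core of a T-box half-site, or to TTCNNNGAA, the GAS element that STAT factors bind.
Tbx21, chr11:97115332-97115581, minus strand: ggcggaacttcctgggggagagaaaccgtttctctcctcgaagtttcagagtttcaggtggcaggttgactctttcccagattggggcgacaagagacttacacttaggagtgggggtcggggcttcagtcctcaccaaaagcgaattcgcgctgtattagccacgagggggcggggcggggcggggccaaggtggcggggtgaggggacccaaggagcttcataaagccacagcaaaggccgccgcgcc
Cxcr3, chrX:101734270-101734397, minus strand: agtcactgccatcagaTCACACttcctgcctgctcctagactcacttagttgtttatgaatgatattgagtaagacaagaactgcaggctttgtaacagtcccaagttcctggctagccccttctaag
Il12rb2, chr6:67376189-67376438, minus strand: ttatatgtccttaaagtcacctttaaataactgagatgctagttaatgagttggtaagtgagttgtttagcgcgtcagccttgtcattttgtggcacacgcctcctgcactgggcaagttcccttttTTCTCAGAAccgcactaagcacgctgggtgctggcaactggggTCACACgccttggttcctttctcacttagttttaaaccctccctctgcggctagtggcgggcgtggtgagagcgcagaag

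Both strands were searched in the full windows of 250 bases. TCACAC was found once in the Cxcr3 window, with its first base at -234 from the RefSeq start, and once in the Il12rb2 window at -80, and it was present in 12.3% of all 32851 promoter windows. The longer TCACACC, which contains it, was in no member window and in 3.33% of all windows. TTCNNNGAA matched in Il12rb2 at -123 and in 2 overlapping Zeb2 windows (7.02% of all windows). The interferon-stimulated response element, searched as GAAA, any 2 bases and GAAA, matched in Eomes at -154 (2.98% of all windows), and GCGNGGGCG, a sequence bound by EGR factors and by WT1, the factor that BASP1 represses, matched in none of the member windows (4.70% of all windows). The letters of these motifs overlap each other in no printed window. The GC content of the windows ran from 39.6% in Fcrl5 to 60.8% in Tbx21, around a median of 52.4% for all windows, and Tbx21 held 16 CpG pairs against 3 in Cxcr3. These matches describe letters in short windows and say nothing on binding.

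Each library held 1 log2 CPM value per gene, and the linear values summed to between 997617 and 1000513 CPM. How many reads stand behind a library is not known. The value that 8492 genes shared in all 6 libraries, called the floor, was -5.063 log2 CPM, and single values can lie under it, as for Eomes. KO and WT values with the same replicate number gave the same sum at each of the 3 numbers, gene by gene and to within 0.001, so a gene carries only a mean and 3 paired differences, and the SD of its KO libraries equals that of its WT libraries by construction. All KO libraries then lie on one side of all WT libraries whenever the 3 paired differences have the same sign. Differences below are KO minus WT on the log2 CPM scale, as the mean of the 3 pairs ± their SD (n = 3 pairs). Basp1 (chromosome 15, 25363277 to 25413764) was at 3.27, 2.86 and 3.23 log2 CPM in the KO libraries 1 to 3, against 5.49, 5.90 and 5.53 in the WT libraries, a difference of -2.51 ± 0.45. KO libraries held 17.5% of the WT level, and undeleted alleles and transcript left outside the floxed part cannot be told apart. All 12 germinal centre markers were above 1 CPM. Their summed level was 8427 to 8743 CPM in KO and 8914 to 9245 CPM in WT libraries, so it was lower in every KO library, and its part in the results was not tested.

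Of the 10 genes, 4 had a geometric mean of at least 1 CPM and entered the fit over all 10133 tested genes: Tbx21, Cxcr3, Il12rb1 and Zeb2. In limma's moderated test with the replicate number as a block, Tbx21 and Cxcr3 were past 5% FDR, as were 0.266% of all tested genes. Those calls led to the choice of the set, so nothing is read from them. KO and WT libraries did not overlap for any of the 4, which was also true of 27.7% of all tested genes. The other 6 were under 1 CPM. Eomes and Itgax averaged less than 1.585 log2 units above the floor, the step that 1 read makes over an offset of 0.5 reads, and are reported as undetected. Itgam, Il12rb2, Fcrl5 and Tlr7 were detected at low levels, and their KO and WT values overlapped. No gene of the set was at the floor in all 6 libraries.

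**Figure D1:**
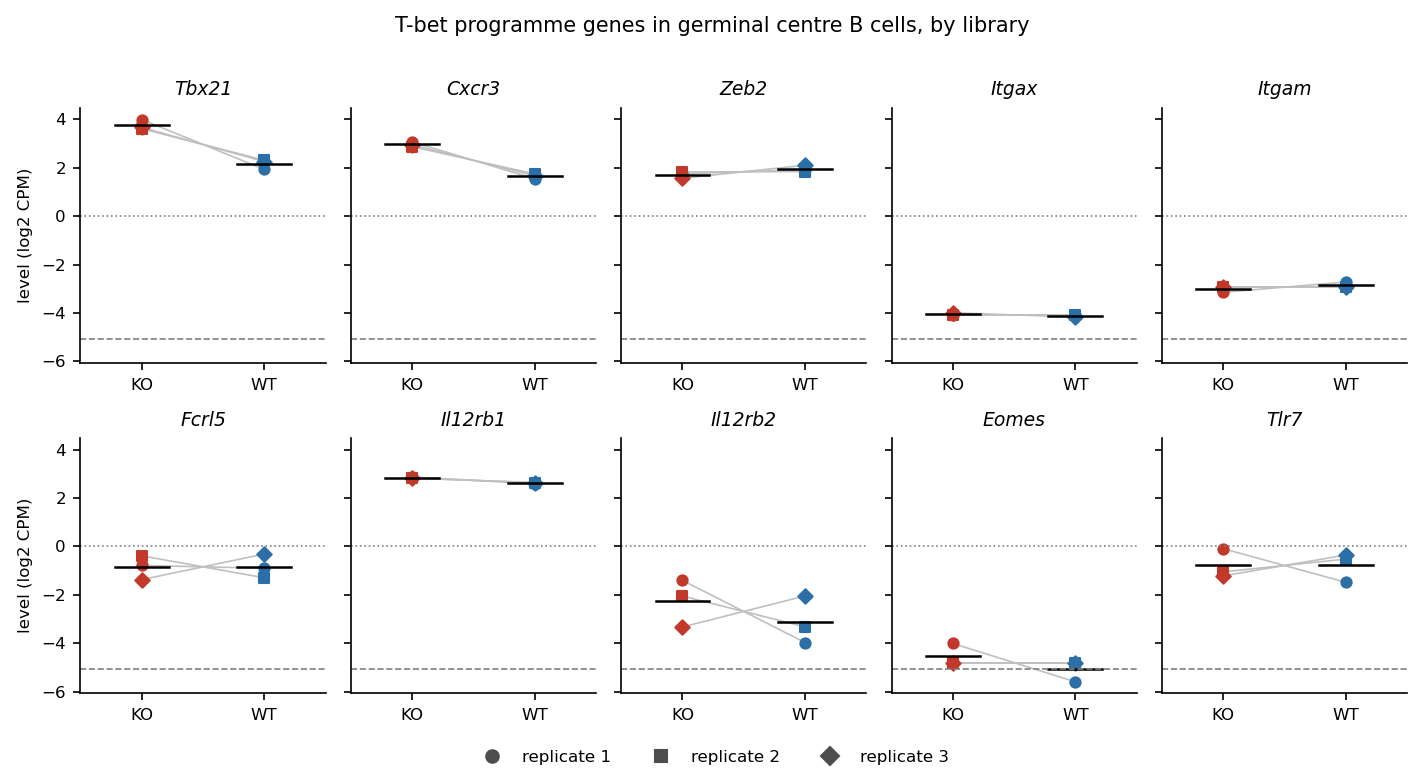
Level of the 10 T-bet programme genes in each library (y axis, log2 CPM), KO left of WT, with grey lines joining libraries of the same replicate number and a black bar at the group mean. The dashed line is the floor of -5.063 log2 CPM and the dotted line is 1 CPM. Tbx21 and Cxcr3 are higher in all KO libraries, Il12rb1 is slightly higher and Zeb2 slightly lower, and the other 6 genes lie under 1 CPM with overlapping groups.

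Tbx21 encodes T-bet (ENSMUSG00000001444.2, chromosome 11, 97098071 to 97115331, minus strand, GENCODE M21 on GRCm38). It was at 3.99, 3.61 and 3.67 log2 CPM in the KO libraries 1 to 3, against 1.93, 2.31 and 2.25 log2 CPM in the WT libraries. The lowest KO library was thus above the highest WT library. The SD inside each group, 0.205, is set by the paired differences because the pair sums are equal, so it is no separate measure of spread. The paired differences were 2.06, 1.30 and 1.41, with a mean of 1.59 ± 0.41. Replicate 1 had the largest difference and so, by the equal pair sums, both the highest KO and the lowest WT value. Geometric means were 13.5 CPM in KO and 4.48 CPM in WT, a ratio of 3.02. Only 3 of the 10133 tested genes had a larger positive difference. For comparison, the median SD of paired differences was 0.243 among the 500 genes nearest in level. In bulk RNA, more T-bet-expressing cells and more Tbx21 RNA per cell cannot be told apart.

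Eomes, the T-box factor closest to T-bet in lymphocytes, was undetected. Its values were -4.01, -4.80 and -4.80 log2 CPM in KO, against -5.59, -4.80 and -4.80 log2 CPM in WT libraries. Replicates 2 and 3 had no difference at all, and replicate 1 had one of 1.585, the size of 1 read. Of the other T-box genes listed beside the set, Tbr1 and Tbx1 were at the floor in all 6 libraries. Tbx6, a factor of the early mesoderm, was under the limit for testing and is named after its values were seen. It was at -2.31, -2.38 and -2.95 log2 CPM in KO, against -1.22, -1.15 and -0.58 log2 CPM in WT libraries. Tbx6 was thus lower in every KO library, as were 6.40% of the 4769 genes under 1 CPM whose values varied. The T-box genes Tbx19 (0.26 ± 1.21) and Mga (0.10 ± 0.13) had overlapping groups.

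Cxcr3, the receptor for the interferon-induced chemokines CXCL9, CXCL10 and CXCL11, lies on chromosome X (101731535 to 101734269, minus strand). It was at 3.07, 2.87 and 2.94 log2 CPM in KO, against 1.55, 1.74 and 1.67 log2 CPM in WT libraries. All KO libraries lay more than 1 log2 unit above all WT libraries. The SD inside a group, 0.100, is again set by the paired differences. The paired differences of 1.52, 1.13 and 1.27 gave a mean of 1.31 ± 0.20, with geometric means of 7.79 CPM in KO and 3.15 CPM in WT. This was the seventh largest positive difference among tested genes, and replicate 1 was again the highest of the 3. The ligand genes Cxcl9 and Cxcl11 were within a 1-read step of the floor in these B cells, and Cxcl10 was at -2.59, -2.08 and -2.75 log2 CPM in KO, against -2.55, -3.06 and -2.39 in WT libraries. The receptors that position germinal centre B cells, Cxcr4 and Cxcr5, differed by -0.02 ± 0.03 and 0.10 ± 0.18.

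Il12rb1, the shared chain of the IL-12 and IL-23 receptors (chromosome 8, 70808449 to 70821424), was at 2.87, 2.82 and 2.83 log2 CPM in KO, against 2.59, 2.64 and 2.63 in WT libraries. Its groups did not overlap although the difference was small, at 0.22 ± 0.05. The spread of its paired differences was below the median SD of 0.263 among the 500 genes nearest in level. Il12rb2, the chain that makes the receptor specific for IL-12 (chromosome 6, 67291318 to 67376188), was low and uneven. Its values were -1.40, -2.05 and -3.33 log2 CPM in KO, against -3.97, -3.32 and -2.04 in WT libraries. The paired differences of 2.56, 1.27 and -1.28 had no common direction. Their mean of 0.85 ± 1.96 became -0.005 without replicate 1 and 1.92 without replicate 3. The exons of Il12rb2 share 1519 bases with those of Serbp1 on the opposite strand, which averaged 625 CPM in KO and 644 CPM in WT, and whether reads were counted by strand is not stated, so reads of the shared part cannot be told apart.

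Zeb2 (chromosome 2, 44983632 to 45117395, minus strand) was at 1.75, 1.82 and 1.57 log2 CPM in KO, against 1.92, 1.84 and 2.10 in WT libraries. Every KO library was below every WT library, but by 0.02 in replicate 2, and the mean of -0.24 ± 0.27 was smaller than its SD. Without replicate 3 the mean was -0.09. An antisense gene, Zeb2os, shares 653 exonic bases with it and is not listed in the files. Zeb1, the paralog of Zeb2, differed by -0.12 ± 0.27, with overlapping groups.

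The integrin chains Itgax (chromosome 7, 128129547 to 128150657) and Itgam (128062640 to 128118491) are neighbours and were both under 0.2 CPM in every library. Itgax was at -4.08, -4.08 and -3.99 log2 CPM in KO, against -4.08, -4.08 and -4.16 in WT libraries. Itgam was at -3.14, -2.93 and -2.93 log2 CPM in KO, against -2.72, -2.93 and -2.93 in WT libraries. Differences were 0 in 2 of 3 replicates for each gene. Itgam shares 3450 exonic bases with Gm49368 on the same strand, so its reads are uncertain. Their partner, the integrin chain Itgb2, was by contrast abundant at 247 CPM in KO and 231 CPM in WT (0.10 ± 0.11), and Itgal, another alpha chain for it, was at 135 CPM in KO libraries with a difference of 0.0003 ± 0.09.

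Fcrl5, an Fc receptor-like protein of B cells (chromosome 3, 87435773 to 87500678), was at -0.78, -0.39 and -1.37 log2 CPM in KO, against -0.90, -1.29 and -0.31 in WT libraries. Its paired differences of 0.12, 0.91 and -1.06 went both ways, with a mean of -0.01 ± 0.99 that became -0.47 without replicate 2 and 0.51 without replicate 3. Tlr7, the endosomal receptor for single-stranded RNA (chromosome X, 167304929 to 167330558), was at -0.09, -1.05 and -1.21 log2 CPM in KO, against -1.48, -0.52 and -0.36 in WT libraries. Replicate 1 was higher in KO by 1.39 and the other replicates lower by 0.53 and 0.86. The mean of 0.001 ± 1.21 became -0.69 without replicate 1 and 0.43 without replicate 3. At this spread a moderate difference of either gene could not be seen.

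**Figure D2:**
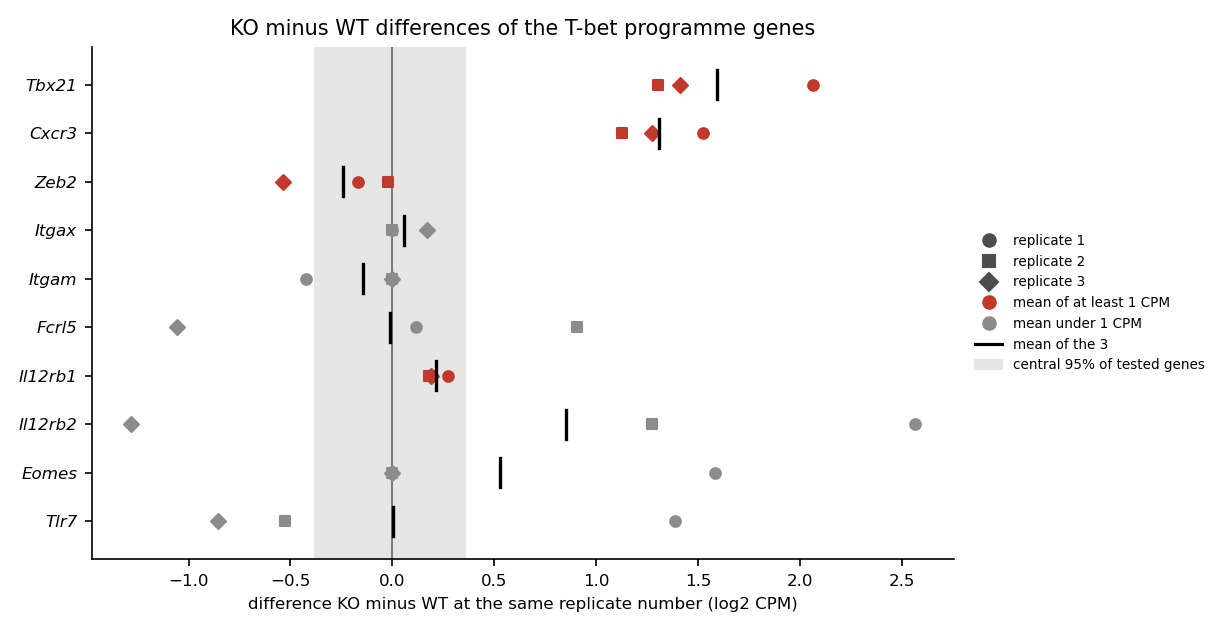
KO minus WT difference (x axis, log2 CPM) of the 10 genes at each replicate number, with a black bar at the mean of the 3. Red points mark a gene mean at or above 1 CPM and grey points one below it, and the grey band holds the central 95% of mean differences of all tested genes (-0.38 to 0.36). Tbx21 and Cxcr3 lie outside the band in all 3 replicates, while Il12rb2, Fcrl5 and Tlr7 have points on both sides of 0.

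Per kilobase of annotated exon, the order of levels in KO libraries was led by Tbx21 (5.44 CPM per kb), then Cxcr3 (4.50), Il12rb1 (1.74), Zeb2 (0.165), Fcrl5 (0.160), Tlr7 (0.142), Il12rb2 (0.0551), and Itgam (0.0248), with Itgax (0.0126) and Eomes (0.0104) at the low end. In KO libraries the lowest value of Tbx21, 4.92 CPM per kb, was above the highest of Cxcr3, 4.85. In WT libraries Cxcr3 (1.82 CPM per kb) and Tbx21 (1.80) could not be ordered, since Tbx21 ran from 1.53 to 1.99 and Cxcr3 from 1.69 to 1.935, and Il12rb1 followed at 1.47 to 1.52. Zeb2, Fcrl5 and Tlr7 were not separable from each other in either group, nor were Il12rb2 and Itgam in WT libraries. Itgax and Eomes, both undetected, overlapped in KO libraries and have no order. The exon length used for Zeb2 is 19.9 kb, as all annotated exons count, which lowers its level per kb.

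**Figure D3:**
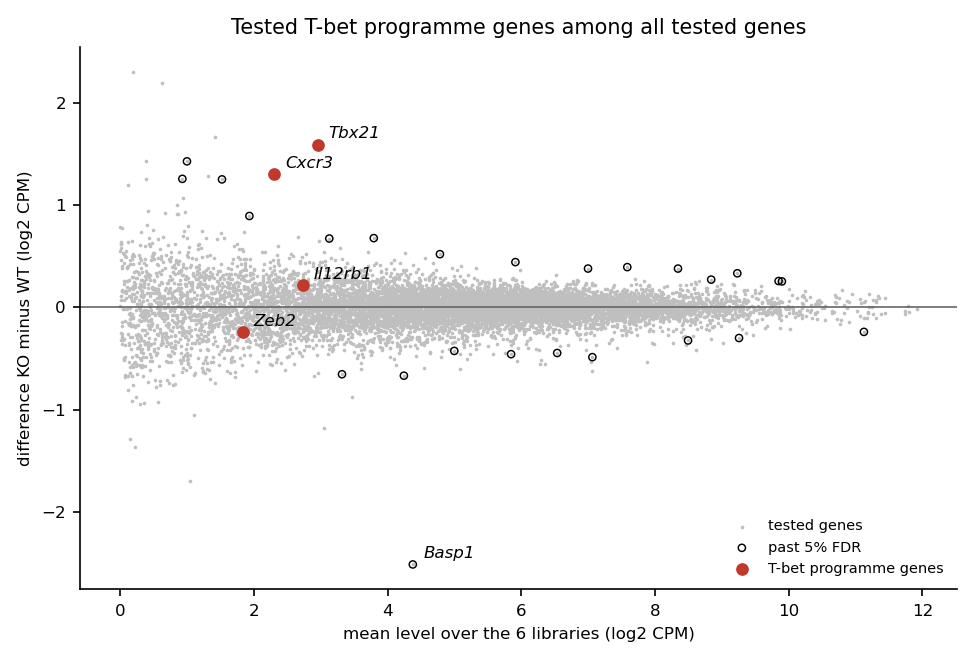
KO minus WT difference (y axis, log2 CPM) against mean level over the 6 libraries (x axis, log2 CPM) for the 10133 tested genes, with the 27 past 5% FDR circled. Tbx21 at 1.59 and Cxcr3 at 1.31 (red) stand above the bulk of genes of like level, Il12rb1 (0.22) and Zeb2 (-0.24) lie inside it, and Basp1 is at -2.51.

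By their 3 paired differences, the members Cxcr3 and Tbx21 were 0.586 apart (Euclidean distance, log2 units). Among the other tested genes the 5 nearest to Tbx21 were Tgtp2 (0.737), Grb7 (0.809), Rasgrf2 (0.885), Rpph1 (1.145) and Prdm1 (1.19). The nearest to Cxcr3 were Grb7 (0.3001), Rasgrf2 (0.421), Tgtp2 (0.504), Rpph1 (0.586) and Jun (0.836). Tgtp2 is an interferon-inducible GTPase, Grb7 an adaptor protein, Rasgrf2 an exchange factor for Ras, Rpph1 the RNA of RNase P, and Jun a subunit of AP-1. The members themselves were left out of this ranking and the next. Cxcr3 and Tbx21 had a Pearson correlation of 0.9958 over the 6 libraries. Among 325 tested genes with a range of at least 1 log2 unit, the non-member genes that correlated most with Tbx21 were March3 (0.991), Oasl2 (0.986), Fgfbp3 (0.984), Tgtp2 (0.983) and Grb7 (0.981), and those with Cxcr3 were Grb7 (0.992), Rasgrf2 (0.983), March3 (0.980), Rpph1 (0.977) and Tgtp2 (0.975). Within the set, Il12rb1 and Tbx21 had a correlation of 0.9999 although their differences were 0.22 and 1.59, since a correlation ignores size. These are descriptions over 6 libraries that hold only 3 free differences per gene, so high values are easily reached. Tbx21 and Cxcr3 were also chosen for their large differences in these same libraries, so nothing is read from their closeness. The genes ranked near them are likewise among those with clear positive differences. Of these, Grb7, Rpph1, Prdm1, March3, Oasl2 and Fgfbp3 were not past 5% FDR in limma.

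The genes around T-bet were looked at through 10 lists drawn up by role, which hold 137 genes besides the 10. The 9 immunoglobulin heavy constant genes, among them the IgG2 genes, were not found by symbol or synonym among the listed genes, so they were not analysed. Of the 88 tested, limma called 0 at 5% FDR in either direction, against 0.266% of all tested genes. At an unadjusted p under 0.05 there were 17, 12 higher and 5 lower in KO, which is 19.3% against 8.82% of all tested genes. The lists were chosen with earlier results of these libraries known, so this share is given as a description. Their median difference was 0.03, against 0.004 for all tested genes.

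Of 13 tested genes of interferon gamma receptor signalling, 0 passed, 6 were positive and 7 negative, with a median difference of -0.01. An unadjusted limma p under 0.05 was found for 7, of which 5 were higher in KO, against 8.82% of all tested genes. Irf1, a transcription factor that interferon gamma induces, was at 39.2 CPM in KO and 29.6 CPM in WT (0.40 ± 0.13; limma adjusted p = 0.0515). The kinase gene Jak2 differed by -0.38 ± 0.48 and was lower in 2 of 3 replicates (adjusted p = 0.333 by limma). Irf1 did pass 5% FDR in limma without the block, with no filter, with a minimum of 4 CPM and without replicate 3. It did not pass with no variance trend, with non-robust moderation, on the log2(CPM + 1) scale, without replicate 1 or without replicate 2.

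Of 6 tested genes of the IL-12 family, 0 passed, with a median difference of 0.15. The nearest was the IL-27 receptor gene Il27ra at 0.49 ± 0.62 (limma adjusted p = 0.536), then Stat4, the factor that IL-12 activates (0.17 ± 0.22), and Tyk2 (-0.09 ± 0.06). None of the 10 tested genes of IL-21 and IL-4 signalling passed, and 0 had an unadjusted p under 0.05. The shared cytokine receptor chain Il2rg differed by 0.17 ± 0.31, Stat5b by -0.13 ± 0.11 and Jak3 by 0.13 ± 0.16. Of 16 tested genes of endosomal Toll-like receptor signalling, limma called 0, and a single gene was under 0.05 without adjustment. It was Slc15a4, an endolysosomal transporter needed for TLR7 and TLR9 responses (0.23 ± 0.15; adjusted p = 0.292 by limma). Irf7 differed by -0.16 ± 0.23. Tlr9, the DNA sensor related to TLR7, was at 1.29 CPM in KO and 0.878 CPM in WT, a difference of 0.555 ± 0.44.

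Among regulators and partners of T-bet, 13 were tested, 0 passed and 3 had an unadjusted p under 0.05. Irf4, a dose-dependent regulator of B cell fate, was at 15.8 CPM in KO and 10.9 CPM in WT (0.54 ± 0.26; limma adjusted p = 0.0636), higher in 3 of 3 replicates. Bhlhe40 differed by 0.47 ± 0.62 and was higher in 2 of 3. Foxo1 differed by -0.27 ± 0.33, with replicate 1 at 0.008. Irf4 and Prdm1 (below) are also on the plasma cell marker list. The sum of that list is mostly Igj, at 1656 CPM in KO and 1850 CPM in WT, and Mzb1, at 873 CPM in KO and 895 CPM in WT. Its low member Sdc1, the plasma cell surface marker CD138, was at 0.947 CPM in KO and 0.658 CPM in WT, higher in every KO library (0.53 ± 0.19), and its part in the results was not tested. Of the B cell repressor Bcl6, which opposes T-bet targets, the difference was -0.10 ± 0.15.

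T-bet targets known from T and NK cells were mostly low, with 17 of 20 under 1 CPM. Of the 20 genes 7 were at the floor in all 6 libraries, among them Ifng, Gzmb, Fasl and Ccl3. The 3 tested ones were Prdm1, which encodes the plasma cell regulator BLIMP1 (0.93 ± 0.56; limma adjusted p = 0.256), the IL-2 and IL-15 receptor chain Il2rb (0.47 ± 0.31; limma adjusted p = 0.527) and the protease Furin (-0.32 ± 0.43). Prdm1 and Il2rb were higher in all KO than in all WT libraries, as 15.2% of tested genes were. Of the 10 targets under 1 CPM that were not at the floor, 3 were higher in all KO libraries and 0 lower, against 5.89% and 6.40% of 4769 such genes. Hopx, a homeodomain cofactor, was at 0.22, -0.43 and -0.30 log2 CPM in KO, against -1.55, -0.91 and -1.03 in WT libraries. The perforin gene Prf1 was at -0.05, 0.28 and 0.44 log2 CPM in KO, against -0.18, -0.51 and -0.67 in WT libraries. The IL-18 receptor gene Il18r1 was at -2.42, -2.94 and -2.94 log2 CPM in KO, against -5.41, -4.89 and -4.89 in WT libraries, whose mean was the floor. Over the 6 libraries Il18r1 averaged 1.149 log2 units above the floor. That is under 1.585, so by the rule used for Eomes and Itgax it counts as undetected. Hopx, Prf1 and Il18r1 were under the limit for testing and were picked after their values had been seen.

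**Figure D4:**
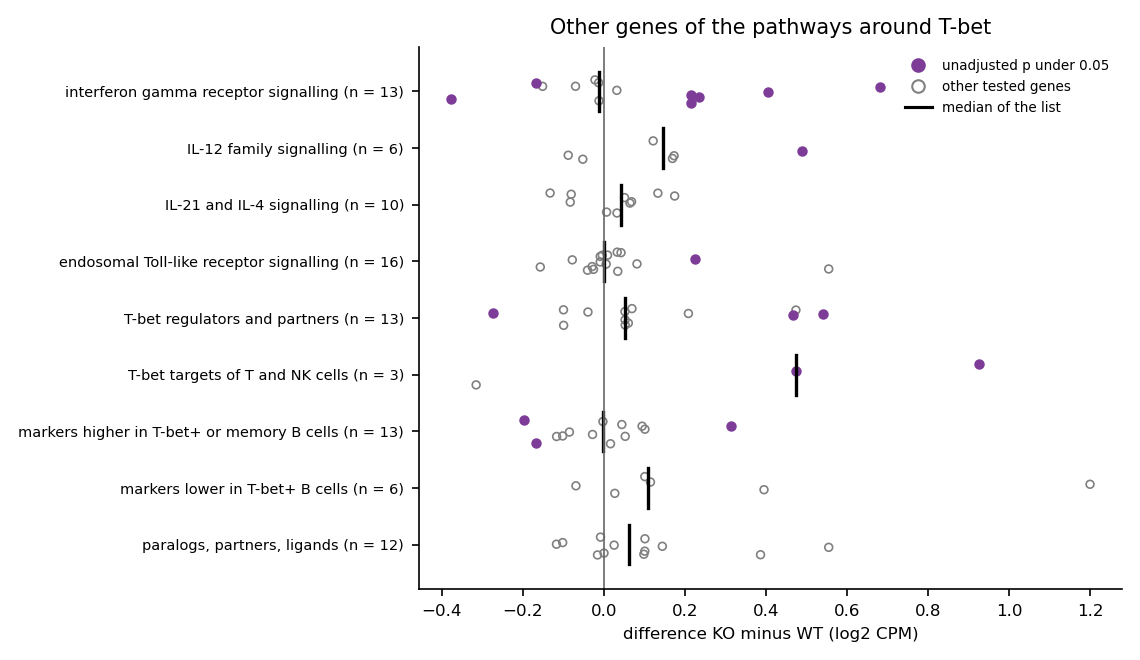
KO minus WT difference (x axis, log2 CPM) of the tested genes in 9 lists of genes around T-bet, with a black bar at the median of each list and filled points for an unadjusted p under 0.05. No gene shown passed 5% FDR. The medians lie between -0.01 and 0.47, the highest being that of a list with 3 tested genes.

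Markers that are high with T-bet or with memory in B cells had no common direction. Of 13 tested, 0 passed, 6 were positive and 7 negative, with a median of -0.002. Cd72, an inhibitory co-receptor, differed by 0.315 ± 0.17 (limma adjusted p = 0.0698), while Fas differed by -0.20 ± 0.02 and Slamf7 by -0.17 ± 0.09, both lower in 3 of 3 replicates. Of 6 markers known to be low on T-bet-positive B cells, 0 passed and 5 were positive. Cr2 differed by 0.115 ± 0.18, Cxcr5 by 0.10 ± 0.18 and Ccr7 by 0.40 ± 1.16. Of 12 tested paralogs, partners and ligands of the set, 0 passed and 0 had an unadjusted p under 0.05. Icam1, the ligand of beta2 integrins, differed by 0.14 ± 0.08, and Tlr9 and Itgb2 are given above.

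Several genes of the set are also expressed by T cells, NK cells, myeloid cells and dendritic cells. Of 14 T cell markers, Cd3e, Bcl11b and Themis were at the floor in all 6 libraries. The list summed to 222.6 to 237.5 CPM in KO, against 190.7 to 203.5 CPM in WT libraries, nearly all of it Lck, which was at 228 CPM in KO and 194 CPM in WT. Without Lck it was 2.24 to 2.66 CPM in KO and 2.33 to 2.81 CPM in WT libraries, so these overlapped. The part of Lck in the results was not tested. Of 8 NK cell markers, Klrd1 and Klre1 were at the floor. The NK list summed to 1.44 to 1.80 CPM in KO and 1.13 to 1.25 CPM in WT libraries, so it was higher in every KO library, with Prf1, named above among the targets, as the main part. Its part in the results was not tested. Myeloid markers summed to 14.04 to 20.3 CPM in KO and 15.9 to 22.6 CPM in WT libraries. Of 8 dendritic cell markers, Clec9a, Clec10a and Batf3 were at the floor, and the list summed to 87.2 to 96.5 CPM in KO and 95.7 to 106.0 CPM in WT libraries, nearly all of it Flt3. Plasma cell markers summed to 2848 to 3031 CPM in KO and 2999 to 3192 CPM in WT libraries. Memory and naive B cell markers summed to 353.5 to 449 CPM in KO and 328 to 416 CPM in WT libraries. Most of it was Fcer2a, at 328 CPM in KO and 322 CPM in WT. Of the 9 tested, 7 were positive and 2 negative, with a median difference of 0.055, and limma called 0 at 5% FDR. Cd38 (0.44 ± 0.35) and Hhex (0.35 ± 0.44) were higher in every KO library, and their part in the results was not tested. Erythroid and platelet markers were higher in every KO library, at 5.25 to 10.5 CPM, against 2.27 to 4.70 CPM in WT libraries, and their part in the results was not tested.

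**Figure D5:**
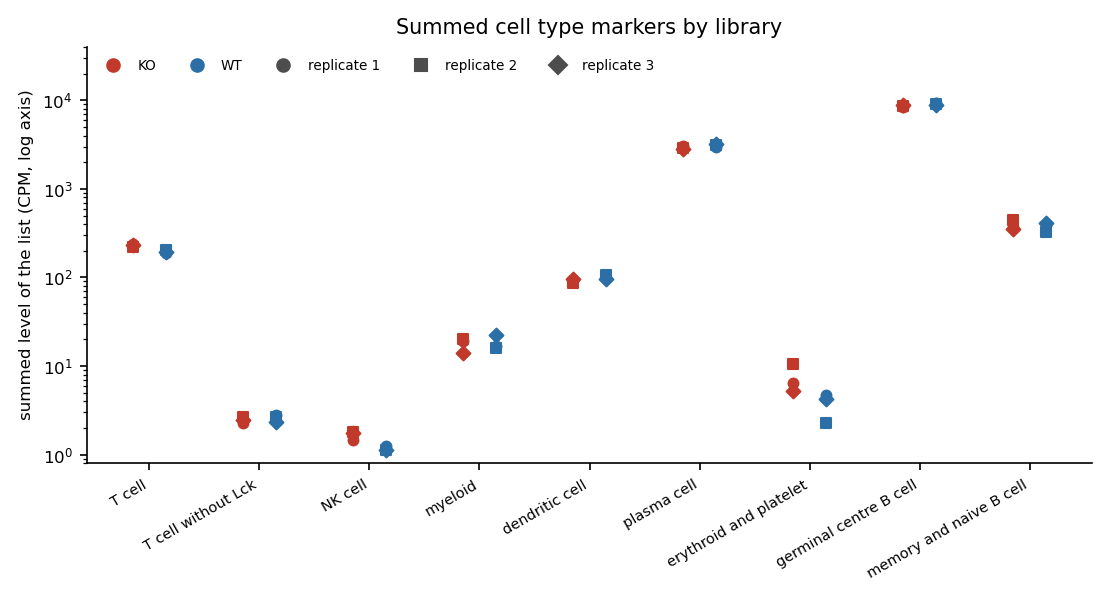
Summed level of each cell type marker list (y axis, CPM on a log axis) in the KO (red) and WT (blue) libraries, with a symbol for each replicate number. KO libraries are apart from WT libraries for the T cell list with Lck (higher), the NK list (higher), the erythroid and platelet list (higher) and the germinal centre list (lower), and overlap with them for the others.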

How the data were processed

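Messenger RNA libraries of 3 KO and 3 WT samples were used. The genome build was mm10, and STAR 2.6.1a, Subread 2.0.1, featureCounts, limma, Trim Galore 0.6.5 and FastQC 0.11.7 are named, per the submitters' processing notes, with no settings or counting strand. The deposited values are log2 CPM, whose unit was read from the values: the linear sums are close to those of CPM, and the equal pair sums show that the authors' values lack replicate effects. Correlations between same-numbered libraries are thereby fixed and are no check of pairing, and the labels do not say what a number stands for. Genes with a geometric mean of at least 1 CPM and more than 1 distinct value were tested with limma 3.58.1 in R 4.3.3 (genotype and replicate block, variance trend, robust moderation, Benjamini-Hochberg adjustment, two-sided), leaving 2 residual and a median of 81.2 prior degrees of freedom. With 3 pairs the smallest p of an exact sign-flip test is 0.25. On simulated data with the same removal (10133 genes, 200 changed), 4.25% of calls were false with the block and 52.2% without it, and 98.8% of genes changed by 1 log2 unit were recovered with it. The simulated libraries were independent and normal, with only upward changes and 1 prior near the median, while the smallest fitted prior was 0.299 degrees of freedom. The simulation thus does not give the share of false calls in these data. The set, the lists and the limits of the fit were chosen with earlier results of these data known. Genes of the lists were named by the smallest p (up to 3 per list). Positions and exon lengths are from GENCODE M21 and promoters from RefSeq. Depth per library is unknown, so no counting intervals are given. Some genes of the lists are counted but not reported here by name.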

Additional observations from a re-analysis of the deposited data

How the results depend on the processing

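The fit over all genes called 27 genes as reported, 142 with no replicate block, 0 with no variance trend (640 at an unadjusted p under 0.05), 12 with non-robust moderation, 95 with no filter on low values, and between 11 (without replicate 2) and 136 (without replicate 1) when a replicate number was left out. Without replicate 3 it called 102. The cause was not tested, except that the fit without the block counts degrees of freedom that the removed replicate effects had used. When a replicate was left out, the difference of Tbx21 ran from 1.36 to 1.74 and that of Cxcr3 from 1.201 to 1.40. Of the listed genes around T-bet, 3 passed with no replicate block (among them Irf1 and Fas), 3 with no filter (Irf1, Irf4 and Cd72) and 1 with a minimum of 4 CPM (Irf1). With no variance trend, with non-robust moderation and on the log2(CPM + 1) scale, 0 passed. Between 0 (without replicate 2) and 5 passed when a replicate was left out: Foxo1 and Jak2 without replicate 1, and 5 without replicate 3, among them Irf1, Irf4, Cd72 and Bhlhe40. On the log2(CPM + 1) scale the difference of Cxcr3 was 1.08. The other member differences moved by no more than 1 SD under that scale or under centring. Without a replicate that limit holds by construction, since leaving out 1 of 3 pairs cannot move the mean so far. The difference of Il12rb2 then ran from -0.005 to 1.92 and that of Tlr7 from -0.69 to 0.43. Read counts are not known, so the precision of the genes under 1 CPM cannot be given.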

Other observations

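The genes next to Tbx21 and Cxcr3 were looked at after the values of both were known, taking the 4 nearest protein-coding genes on each side. Of the 8 around Tbx21, 6 were tested, limma called 0 at 5% FDR and 1 had an unadjusted p under 0.05. That was Scrn2, 64.1 kb away, at 0.48 ± 0.27 (limma adjusted p = 0.256). The nearest on the upstream side, Tbkbp1, which encodes a TBK1-binding protein, lies 20.8 kb away and was under 1 CPM. Its values were -2.39, -2.63 and -2.24 log2 CPM in KO, against -3.67, -3.42 and -3.82 log2 CPM in WT libraries. All KO libraries were thus higher (1.22 ± 0.40), as for 5.89% of the 4769 genes under 1 CPM whose values varied. Osbpl7, 29.2 kb away on the other side, differed by -0.08 ± 0.33.

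Of the 8 neighbours of Cxcr3, 5 are listed and 3 were tested, and limma called 1, Ogt, against 0.266% of all tested genes. Ogt adds O-GlcNAc to proteins and is the nearest listed gene, 47.2 kb away. It was higher in KO by 0.38 ± 0.27 (limma adjusted p = 0.0239), with uneven paired differences of 0.18, 0.27 and 0.69. With no variance trend limma called 0 of all tested genes, so Ogt was not called there. Taf1, 129.7 kb away on the same side, differed by -0.02 ± 0.15. Itgb1bp2, 278.0 kb away on that side, was under 1 CPM. It was lower in every KO library (-1.27 ± 0.57), as were 6.40% of the 4769 genes under 1 CPM whose values varied.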
